A study of Homo sapiens with 6 samples.

Results

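The genes examined here were 31 genes of cholesterol and fatty acid synthesis. The choice was by gene name and place in the pathway and used no measured value, though earlier results of these data were known. Of the 31, 30 had at least 1 region in the deposited lists, among 16428 gene names in all. The lists assigned to these genes 196 RPB1 regions in SHP-1-WT cells, 170 RPB1 regions in SHP-1-KO cells, 420 pSer2 RPB1 regions in SHP-1-WT cells and 430 in SHP-1-KO cells. The regions came from ChIP-seq of HepG2, a cell line from a human liver tumor, in which the tyrosine phosphatase SHP-1 (encoded by PTPN6) had been knocked out by CRISPR (SHP-1-KO) or which carried the CRISPR control (SHP-1-WT). Per the methods of the study, the edited cells were grown from single cells, so each genotype may stand for 1 clone, and no treatment was given. RPB1, the largest subunit of RNA polymerase II, was captured with an antibody to its C-terminal domain (ab817), and elongating polymerase with an antibody to phosphorylated serine 2 of that domain (pSer2, ab5095). Each combination of antibody and genotype had 1 library, so no difference between SHP-1-WT and SHP-1-KO has a replicate check, no test was possible, and clone, library and genotype cannot be told apart.

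Cholesterol is built from acetyl-CoA through mevalonate, the isoprenoid diphosphates and squalene, which is closed to lanosterol and then trimmed to cholesterol in the endoplasmic reticulum. Fatty acids are built from the same acetyl-CoA, and the liver is a main site of both. Transcription of most of these enzymes is driven by the sterol regulatory element binding proteins encoded by SREBF1 and SREBF2, which are carried by SCAP to the Golgi for cleavage when sterols are low and held back by the INSIG proteins when sterols are high. RNA polymerase II gathers near gene starts, and serine 2 of its tail becomes phosphorylated as it moves into the gene, so pSer2 signal rises towards the gene end.

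The lists held 46045 and 41605 RPB1 regions and 102674 and 81012 pSer2 regions, the SHP-1-WT number first in each pair. Each region carries its fold enrichment over the input DNA of the same cells at its summit, and since the lists give no read counts, sequencing depth is unknown. The fold enrichment of all genes was lower in the SHP-1-KO RPB1 list, with a median ratio of SHP-1-KO to SHP-1-WT of 0.727 over 11250 gene names with a promoter region in both, while the pSer2 promoter ratio was 0.958 over 7191 names. Ratios below were therefore divided by the median ratio of all genes (centred), and a gene was called higher or lower when the centred ratio passed 1.5-fold. Of 6 hepatic marker genes (ALB, AFP, HNF4A, FGB, APOA2 and TF), 6 had a promoter RPB1 region in SHP-1-WT and 5 in SHP-1-KO, with APOA2 the exception. This is by the nearest-gene names of the lists and was not checked by position. APOA2 had a promoter pSer2 region of 14.0-fold in SHP-1-KO. The strongest promoter region named for PTPN6 had an RPB1 fold enrichment of 24.0 in SHP-1-WT and 17.2 in SHP-1-KO, but polymerase at the gene says nothing of the protein and is no check of the labels.

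Promoter sequences of RefSeq (GRCh38.p14, from 250 bases before to 50 bases after the start) were matched to 27 of the 31 genes by symbol, and ACAT2, FDFT1, SQLE and FASN had none. The core of the sterol regulatory element, TCACNCCAC, was found on either strand in 1 of the 27 genes, SREBF2, against 1.39% of all 27305 genes of the table. In SREBF2 it lay at positions -133 to -125 from the start and was part of the longer classical element, 1 base longer at its 5′ side and with C at the open position, which 0.0586% of all genes held. CCAAT, the letters bound by NF-Y, was found in 20 of the 27 genes (74.1%), against 39.7% of all genes and 43.3% of the 9576 genes of the table with an RPB1 region at the start in SHP-1-WT cells. GGGCGG, the letters of the GC box, was found in 26 of the 27 (96.3%), against 48.3% of all genes and 78.1% of those with an RPB1 region. TATAAA was found in HMGCS1 and INSIG1 (7.41%, against 14.0%), and the E-box CACGTG in INSIG1, LSS, SC5D and SCAP (14.8%, against 8.77%). Among genes with an RPB1 region at the start, the E-box was in 11.5% of the members and 12.8% of all, and TATAAA in 3.85% and 7.65%. These matches are descriptions of letters in a window and not of bound sites.

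The 250 bases before the start are shown for SREBF2, which held the sterol element, and for the 5 genes whose RPB1 at the start differed by over 1.5-fold between the genotypes after centring (HMGCS1, MVK, LSS and FADS1 lower and ELOVL6 higher in SHP-1-KO, described further on). Capitals mark the sterol element and, on either strand, the CCAAT, TATA and E-box letters given above, and GC boxes are left in lower case. The stretches lie at chr22:41832855-41833104 on the forward strand for SREBF2, chr5:43313413-43313662 on the reverse strand for HMGCS1, chr12:109573544-109573793 on the forward strand for MVK, chr21:46228775-46229024 on the reverse strand for LSS, chr11:61817004-61817253 on the reverse strand for FADS1 and chr4:110198616-110198865 on the reverse strand for ELOVL6.
SREBF2: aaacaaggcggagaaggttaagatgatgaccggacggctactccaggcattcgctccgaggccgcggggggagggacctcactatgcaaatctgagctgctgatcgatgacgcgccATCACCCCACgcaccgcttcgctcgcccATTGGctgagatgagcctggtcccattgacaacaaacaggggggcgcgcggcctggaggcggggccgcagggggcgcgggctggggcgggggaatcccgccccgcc
HMGCS1: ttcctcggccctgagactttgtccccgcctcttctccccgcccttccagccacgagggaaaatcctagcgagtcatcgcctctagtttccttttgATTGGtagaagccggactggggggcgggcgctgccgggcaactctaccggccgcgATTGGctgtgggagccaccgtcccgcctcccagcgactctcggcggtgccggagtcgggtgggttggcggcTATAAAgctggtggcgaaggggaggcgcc
MVK: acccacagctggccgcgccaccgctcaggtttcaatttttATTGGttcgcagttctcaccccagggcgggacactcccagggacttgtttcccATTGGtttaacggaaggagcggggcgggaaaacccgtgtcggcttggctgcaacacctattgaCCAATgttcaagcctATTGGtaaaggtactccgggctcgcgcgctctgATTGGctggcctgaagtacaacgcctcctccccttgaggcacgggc
LSS: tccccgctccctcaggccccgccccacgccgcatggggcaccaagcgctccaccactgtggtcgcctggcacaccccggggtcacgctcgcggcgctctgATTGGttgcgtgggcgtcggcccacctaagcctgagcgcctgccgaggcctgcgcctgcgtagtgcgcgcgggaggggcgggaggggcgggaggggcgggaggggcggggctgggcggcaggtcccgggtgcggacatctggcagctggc
FADS1: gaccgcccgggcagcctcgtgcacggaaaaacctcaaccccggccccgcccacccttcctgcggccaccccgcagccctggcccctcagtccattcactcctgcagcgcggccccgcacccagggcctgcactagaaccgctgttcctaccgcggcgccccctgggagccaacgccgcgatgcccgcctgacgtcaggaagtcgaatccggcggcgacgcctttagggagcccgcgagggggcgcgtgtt
ELOVL6: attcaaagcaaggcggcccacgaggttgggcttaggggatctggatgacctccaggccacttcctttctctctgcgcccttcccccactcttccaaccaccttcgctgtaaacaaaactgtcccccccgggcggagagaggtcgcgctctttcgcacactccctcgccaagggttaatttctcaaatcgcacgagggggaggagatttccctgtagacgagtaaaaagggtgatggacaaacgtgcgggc

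CCAAT occurred 5 times before the MVK start, 2 times before the HMGCS1 start and 1 time before the LSS and SREBF2 starts. The stretches of FADS1 and ELOVL6 held none. The HMGCS1 stretch alone among the 6 held TATAAA, at positions -29 to -24 from the start. LSS held 6 GC boxes before its start, and the other 5 stretches held 1 or 2.

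An RPB1 region lay within 1 kb of the start of 30 of the 31 genes in both genotypes, where 60.2% of 19962 protein-coding genes had one in SHP-1-WT and 58.2% in SHP-1-KO. INSIG1, which encodes an endoplasmic reticulum anchor of SCAP, had no region in any list. Its gene lies at chr7:155297878-155310235, and the lists as used here held no region at all between 155009060 and 155618307 on that chromosome, so INSIG1 was not analysed here. The nearest-gene names of the lists assigned a promoter RPB1 region to 26 of the genes in SHP-1-WT and 28 in SHP-1-KO. The share of all gene names in these lists that had one was 86.3% and 87.9%. By name, 1 of 29 genes had a promoter region in SHP-1-WT alone (IDI1), where 7.64% of all names did, and 3 had one in SHP-1-KO alone (ACAT2, LSS and NSDHL), where 4.51% of all names did. Positions placed a strong region over each of these 4 starts in both lists. The region over the IDI1 start was named for WDR37 in both lists, that over the ACAT2 start for SOD2-OT1 in both, that over the NSDHL start for CETN2 in both, and that over the LSS start for MCM3AP-AS1 in SHP-1-WT and for LSS in SHP-1-KO. The start regions of MVK (MMAB), MVD (SNAI3-AS1), SQLE (LOC105375744), FADS1 (MIR1908) and STARD4 (STARD4-AS1) also carried a neighbour's name. In GENCODE release 44, 17 of the 31 starts have another gene's start within 1 kb, in 4 cases that of a protein-coding gene, so part of the signal at these starts may belong to the neighbour.

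With the names of the lists, 25 genes could be compared at the promoter. Their highest fold enrichment had a median of 37.4 in SHP-1-WT (26 genes), against 26.1 for all genes, and of 24.3 in SHP-1-KO (28 genes), against 19.0 for all genes. As deposited, the value was lower in SHP-1-KO for 23 of the 25. After centring, the median log2 ratio of the 25 was -0.19, and 18 were below the median of all genes. Past 1.5-fold, 1 of the 25 was lower (HMGCS1, log2 -0.69), where 9.29% of all genes were, and 1 was higher (ELOVL6, log2 0.63), where 10.3% were.

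Because of the naming, the start was also measured by position, as the strongest region of any name within 1 kb of the start of the GENCODE canonical transcript. This measure was chosen after the values were seen. It covered 30 of the genes, with a median fold enrichment of 46.6 in SHP-1-WT, against 29.0 for the 12021 protein-coding genes with such a region, and of 27.9 in SHP-1-KO, against 20.8 for 11616 genes. In 28 of the 30 the value was lower in SHP-1-KO, and the median ratio was 0.590, against 0.717 for all 11478 genes with a value in both. After centring, 26 of the 30 lay below the median of all genes, where 50.0% of all genes lie. The median log2 ratio of the 30 was -0.28. Past 1.5-fold, 4 of the 30 were lower, where 8.59% of all genes were, and 1 was higher, where 8.51% were. The level of the genes was also taken into account. In the upper 25% of genes by level, all genes had a centred median of 0.06 and the 15 members there of -0.20, with 13 of the 15 below 0.

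**Figure D1:**
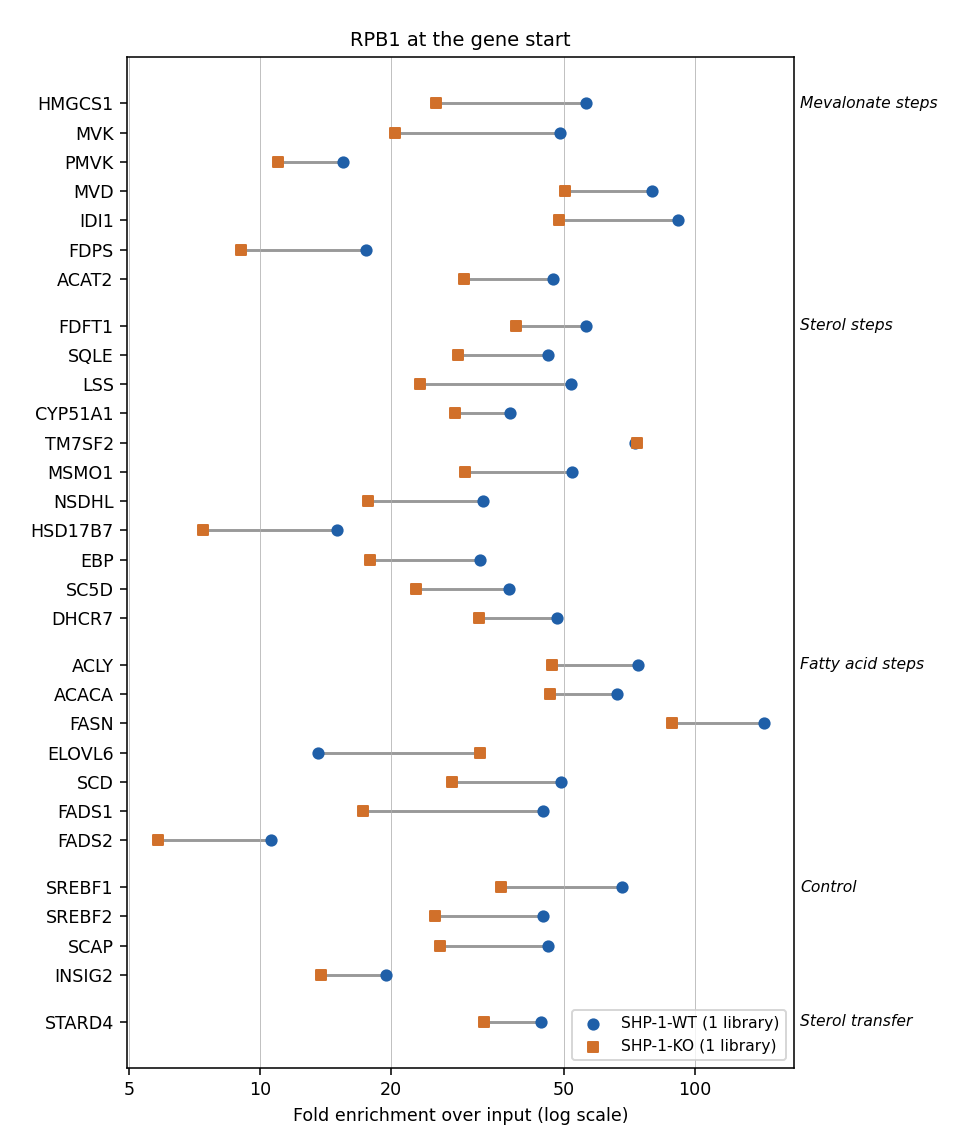
RPB1 fold enrichment over input (log axis) of the strongest region within 1 kb of the start of each gene, in 1 SHP-1-WT library (blue circles) and 1 SHP-1-KO library (orange squares), with genes grouped by role and no error bars since each point is 1 library. The SHP-1-KO value lay to the left of the SHP-1-WT value in 28 of 30 genes, and TM7SF2 and ELOVL6 were the exceptions.

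Among the enzymes of the mevalonate steps, the median centred log2 ratio at the start was -0.43 (7 genes). HMGCS1, the cytosolic synthase that condenses acetoacetyl-CoA and acetyl-CoA (chr5:43287470-43313412, reverse strand), went from 56.2-fold in SHP-1-WT to 25.4-fold in SHP-1-KO, a centred log2 ratio of -0.67. The region over its start was 3229 bp long in SHP-1-WT and 1089 bp in SHP-1-KO, with summits 63 and 69 bp into the gene. MVK, mevalonate kinase, had 49.0 and 20.4 (log2 -0.78) in a region that also covers the start of MMAB, 290 bp away on the opposite strand. IDI1, the isomerase of the isoprenoid diphosphates, had 91.3 and 48.7 (log2 -0.43) and stood at percentiles 99.2 and 94.1. MVD, which decarboxylates mevalonate diphosphate, had 79.9 and 50.2 (log2 -0.19). FDPS, farnesyl diphosphate synthase, had 17.5 and 9.04 (log2 -0.48). PMVK, the kinase after MVK, had 15.5 and 11.0 (log2 -0.02), and ACAT2, the thiolase that makes acetoacetyl-CoA, had 47.3 and 29.5 (log2 -0.20). HMGCS1 and MVK were thus the mevalonate genes past 1.5-fold, and PMVK moved with the median gene.

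Among the sterol steps, the median was -0.23 (11 genes). LSS, lanosterol synthase, had 51.9-fold in SHP-1-WT and 23.3-fold in SHP-1-KO (log2 -0.67), the single sterol gene past 1.5-fold. HSD17B7, a keto reductase of the late pathway, had 15.0 and 7.39 (log2 -0.54), and NSDHL, a sterol dehydrogenase, 32.5 and 17.7 (log2 -0.40). EBP, a sterol isomerase, had 32.0 and 17.9 (log2 -0.36), and MSMO1, a methylsterol oxidase, 52.1 and 29.6 (log2 -0.33). The remaining genes lay closer to the median of all genes. SC5D, a sterol desaturase, had 37.3 and 22.8 (log2 -0.23). SQLE, squalene epoxidase, had 46.0 and 28.6 (log2 -0.21), and DHCR7, the reductase of the last step, 48.3 and 31.9 (log2 -0.12). FDFT1, squalene synthase, had 56.2 and 38.7 (log2 -0.06), and CYP51A1, lanosterol demethylase, had 37.5 and 28.1 (log2 0.06). TM7SF2, a sterol reductase, stood apart with 72.8 and 73.7 (log2 0.50), one of 2 genes not lower in the values as deposited.

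The fatty acid genes had a median of -0.22 (7 genes). FASN, fatty acid synthase (chr17:82078338-82098236, reverse strand), had the highest RPB1 of the set, 144-fold in SHP-1-WT and 88.7-fold in SHP-1-KO (log2 -0.22), at percentiles 100 and 99.7 of all genes. ACLY, which makes cytosolic acetyl-CoA from citrate, had 74.0 and 47.0 (log2 -0.17), and ACACA, acetyl-CoA carboxylase, 66.2 and 46.5 (log2 -0.03). SCD, stearoyl-CoA desaturase, had 49.3 and 27.7 (log2 -0.35). FADS1, a desaturase of polyunsaturated fatty acids, had 44.8 and 17.2 (log2 -0.90), the lowest ratio of the 30. That region was named for MIR1908, and its summit lay 1509 bp into FADS1 in SHP-1-WT and 1553 bp in SHP-1-KO. The neighbouring desaturase gene FADS2 had 10.6 and 5.81 (log2 -0.39). ELOVL6, an elongase of long-chain fatty acids, had 13.6 and 32.1 (log2 1.71), but the SHP-1-KO value came from a region with its summit 1516 bp into the gene. The SHP-1-WT list had such a region too, 28.6-fold with its summit 2025 bp into the gene, outside the 1 kb window. Within 250 bp of the start, the centred log2 ratio of ELOVL6 was 0.04, and between the 2 inner regions, as by name, it was 0.63.

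Of the control genes, SREBF1 had 68.2 in SHP-1-WT and 35.8 in SHP-1-KO (log2 -0.45), SREBF2 44.8 and 25.3 (log2 -0.35) and SCAP 45.9 and 25.9 (log2 -0.35). INSIG2, the second anchor of SCAP, had 19.5 and 13.8 (log2 -0.02). STARD4, which transfers cholesterol between membranes, had 44.3 and 32.8 (log2 0.04). None of the 5 passed 1.5-fold.

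Gene bodies held RPB1 regions in 23 of the 31 genes in SHP-1-WT and 20 in SHP-1-KO by the names of the lists (exon, intron and UTR classes), where 45.4% and 43.3% of all names had one. Of the 19 genes with a value in both lists, 2 were higher past 1.5-fold in SHP-1-KO (FADS1, from 4.21 to 8.59, and ACACA, from 4.23 to 6.86), where 9.27% of all genes were. Another 2 were lower (ACLY, from 9.19 to 4.79, and DHCR7, from 8.51 to 5.28), where 12.1% of all genes were. The median centred log2 ratio was -0.05. Body regions were found in SHP-1-WT alone for 4 of 24 genes (SQLE, CYP51A1, EBP and FADS2), where 23.0% of all names were, and in SHP-1-KO alone for TM7SF2, where 15.2% were. RPB1 in gene bodies, as far as called regions show it, thus differed in both directions at shares near those of all genes.

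The share of each gene covered by RPB1 regions gave a wider view. It was lower by at least 10 points in SHP-1-KO for 7 of 30 genes, where 8.80% of all genes with a region were, and higher by as much for 0, where 2.75% were. The 7 were MVD (from 74.0% to 48.8%), FDPS (84.1% to 62.7%), MVK (21.1% to 4.73%), SREBF1 (38.5% to 23.5%), DHCR7 (24.2% to 10.1%), MSMO1 (41.3% to 27.5%) and TM7SF2 (94.2% to 80.5%). FASN, by contrast, was covered over 99.7% of its length in SHP-1-WT and 98.4% in SHP-1-KO, and SCD over 82.9% and 77.4%. The median RPB1 coverage in SHP-1-WT was 12.3% for the 30 genes and 3.82% for all genes, most of which could not lose 10 points. Over genes with a mean RPB1 coverage of at least 20%, the median difference was -10.8 points for 10 genes of the set. For all 2554 such genes it was -3.84 points.

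pSer2 regions named for these genes lay at promoters in 28 of the 31 genes in SHP-1-WT and 25 in SHP-1-KO, and in gene bodies in 24 and 23. The share of all names with a pSer2 promoter region was 71.1% and 70.1%, and with a body region 73.9% and 71.1%. At promoters, 3 of 28 genes had a region in SHP-1-WT alone (IDI1, NSDHL and ELOVL6), where 18.9% of all names did, and 0 in SHP-1-KO alone, where 8.29% did. Of the 25 genes with a value in both, 6 were lower past 1.5-fold in SHP-1-KO, where 11.0% of all genes were, and 2 were higher, where 10.4% were. The median centred log2 ratio of the 25 was -0.34. The 6 lower genes were HMGCS1 (10.2 to 4.53), ACAT2 (16.2 to 8.22), FDPS (12.9 to 7.45), SCD (10.9 to 5.88), SREBF2 (10.3 to 5.22) and FASN (28.9 to 18.0), and the 2 higher genes were ACACA (3.69 to 6.40) and CYP51A1 (4.33 to 6.39). Some regions that the lists classed as promoter did not lie over the gene start. That of FASN in SHP-1-WT began inside the gene. It was 22898 bp long with its summit 21460 bp from the start, past the gene end. The strongest ones of ACAT2 and FDPS in SHP-1-WT lay at the gene end, with their summits past it. In ACAT2 the 8.22-fold SHP-1-KO region lay wholly before the start, so the 2 values came from different places. The ACAT2 ratio by name thus does not show a lower value at the start. By position, pSer2 at the ACAT2 start did not pass 1.5-fold.

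At the start itself, by position, pSer2 regions of both genotypes were found for 23 genes. Of these, 6 were lower past 1.5-fold in SHP-1-KO, where 12.9% of all genes were, and 2 were higher, where 12.1% were. The lower ones were HMGCS1 (10.2 to 4.45, log2 -1.15), FASN (15.0 to 7.38, log2 -0.98), MVD (7.95 to 3.94, log2 -0.97), SREBF2 (10.3 to 5.22, log2 -0.94), SCD (10.9 to 5.88, log2 -0.85) and SQLE (5.41 to 3.41, log2 -0.62). The higher ones were SREBF1 (4.12 to 6.25, log2 0.64) and CYP51A1 (4.33 to 6.39, log2 0.60). The median of the 23 was -0.04, with 12 of the 23 below 0. In SCD the 2 values, equal to those given by name above, came from different places. The SHP-1-WT region (chr10:100347768-100353439) began inside the gene, with its summit 5874 bp from the start. The SHP-1-KO region (chr10:100346272-100346997) lay wholly before the start at 100347233. In SREBF1 the summits also lay apart, at -659 bp from the start in SHP-1-WT and 542 bp in SHP-1-KO.

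Within gene bodies, 22 genes had a pSer2 value in both genotypes, with a median centred log2 ratio of -0.17. ACACA was higher past 1.5-fold in SHP-1-KO (5.83 to 11.9, log2 1.11), where 7.90% of all genes were. Both INSIG2 (9.54 to 3.92, log2 -1.21) and DHCR7 (9.16 to 5.75, log2 -0.60) were lower, where 7.81% of all genes were. Past the INSIG2 end, close to the SHP-1-WT summit, SHP-1-KO had a region of 8.39-fold that its list classed as intergenic, so by position the strongest values were 9.54 and 8.39. In ACACA the SHP-1-KO value came from a region at the gene end (chr17:37081780-37086561), where the strongest SHP-1-WT region of any name had 14.0. By the names and classes of the lists, body regions were found in SHP-1-WT alone for 2 of 25 genes (PMVK and NSDHL), where 19.4% of all names were. FASN had one in SHP-1-KO alone, where 6.74% did. That region (12.0-fold) lay before the gene, at -4.480 to -1.935 kb from the start. A SHP-1-WT region of 6.83-fold lay there too, at -4.282 to -0.247 kb. By position, pSer2 regions covered 97.3% of FASN in SHP-1-WT and 96.1% in SHP-1-KO. The summit heights of pSer2 in gene bodies were thus close to those of the median gene in most of the set.

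The genotypes differed more in how much of each gene the pSer2 regions covered. Over the 28 genes with a pSer2 region, the median share of the gene covered was 50.4% in SHP-1-WT and 25.1% in SHP-1-KO, while over all 10693 genes with a region it was 9.22% and 5.96%. The share was lower in SHP-1-KO in 26 of the 28, where 71.6% of all genes were lower, and lower by at least 10 points in 16 of the 28, where 14.5% of all genes were. It was higher by at least 10 points in 0, where 3.23% of all genes were. The median difference was -11.3 points for the 28 genes and -1.22 points for all genes. Since a gene with little coverage cannot lose 10 points, the comparison was repeated, after the values were seen, over genes with a mean coverage of at least 20%. There 14 of 19 genes of the set were lower by at least 10 points, where 32.8% of all 3305 such genes were, and 0 were higher, where 8.32% were. The median difference was -17.6 points for the 19 and -4.21 points for all such genes. With both pSer2 lists held, also after the values were seen, to the 81012 regions with the highest -log10 q-values, 13 of 28 were lower by at least 10 points, against 11.2% of all genes, and the medians were -8.84 and -0.494 points.

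**Figure D2:**
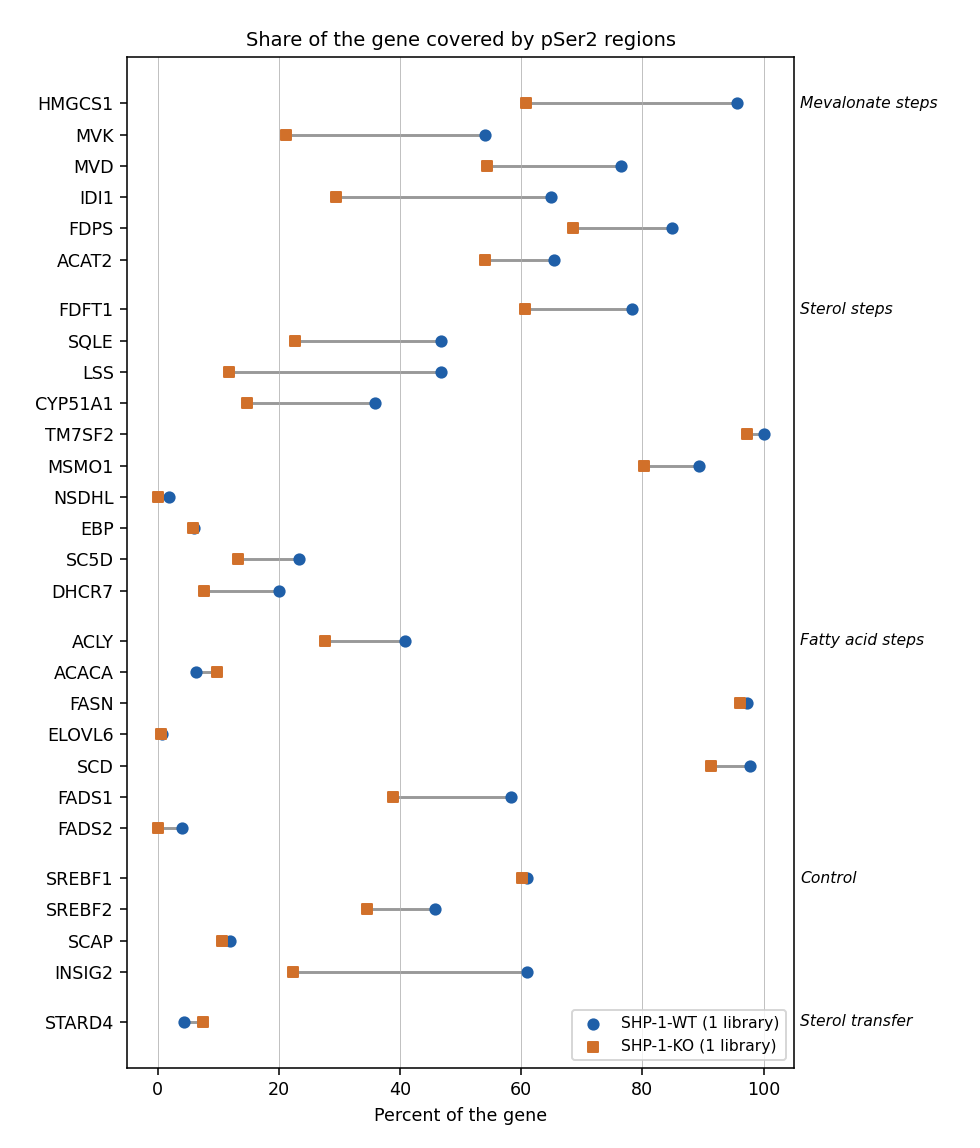
Share of each gene covered by pSer2 regions, in percent of the gene, in 1 SHP-1-WT library (blue circles) and 1 SHP-1-KO library (orange squares), for the 28 genes with a pSer2 region. The SHP-1-KO value was lower in 26 genes, by 38.7 points in INSIG2 and 35.5 points in IDI1, and higher in ACACA and STARD4.

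All 6 mevalonate genes with a pSer2 region were lower by at least 10 points, with a median of -27.5 points. IDI1 went from 65.0% to 29.5%, HMGCS1 from 95.6% to 60.8%, MVK from 54.0% to 21.1%, MVD from 76.5% to 54.3%, FDPS from 84.9% to 68.5% and ACAT2 from 65.4% to 54.0%. PMVK had no pSer2 region in its span in either genotype, and the SHP-1-WT body region named for it lay outside that span. In HMGCS1, 8 pSer2 regions in SHP-1-WT stood against 26 in SHP-1-KO. Their median width was 3235 bp in SHP-1-WT and 414 bp in SHP-1-KO, and the longest, over the gene end, went from 9314 to 5761 bp.

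Of the 10 sterol genes with a pSer2 region, 6 were lower by at least 10 points, with a median of -11.2 points. LSS went from 46.8% to 11.7%, SQLE from 46.8% to 22.6%, CYP51A1 from 35.9% to 14.7%, FDFT1 from 78.3% to 60.7%, DHCR7 from 20.0% to 7.69% and SC5D from 23.3% to 13.2%. MSMO1 (89.4% and 80.3%) and TM7SF2 (100% and 97.3%) remained covered over most of their length. NSDHL (1.86% and 0%) and EBP (5.93% and 5.82%) had little pSer2 in either genotype, and HSD17B7 had none. The pSer2 region over TM7SF2 in SHP-1-WT was 7959 bp long on a gene of 4359 bp, with its summit past the gene end, so it also covers neighbouring genes. In LSS, 27 regions of SHP-1-WT stood against 16 of SHP-1-KO, and the longest, at the gene end, went from 5585 to 1302 bp.

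The fatty acid genes differed among themselves, with 2 of 7 lower by at least 10 points and a median of -4.02 points. FADS1 went from 58.3% to 38.8% and ACLY from 40.9% to 27.6%. FASN (97.3% and 96.1%) and SCD (97.7% and 91.3%), which were covered almost from end to end, had nearly equal coverage in both genotypes. ACACA, the longest gene of the set at 321845 bp, went from 6.29% to 9.76%, with 66 regions in SHP-1-WT and 94 in SHP-1-KO. FADS2 went from 4.02% to 0%, and ELOVL6 had 0.689% and 0.474%.

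Among the control genes, INSIG2 (chr2:118088471-118110997, forward strand) had the largest difference of the set, from 61.0% to 22.3%, and SREBF2 went from 45.7% to 34.6%. The longest INSIG2 region in SHP-1-WT was 8034 bp long and ran past the gene end, from 21.690 to 29.723 kb from the start. The longest in SHP-1-KO that touched the gene was 783 bp. Past the gene end, SHP-1-KO had further regions, among them those at 23.979 to 24.960 kb and 25.198 to 26.982 kb. These did not touch the gene and were not counted. SREBF1 had 61.0% and 60.1% and SCAP 11.9% and 10.6%. STARD4 went from 4.30% to 7.53%. The RPB1 fold enrichment at the INSIG2 start, in contrast, moved with the median gene, as given above.

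**Figure D3:**
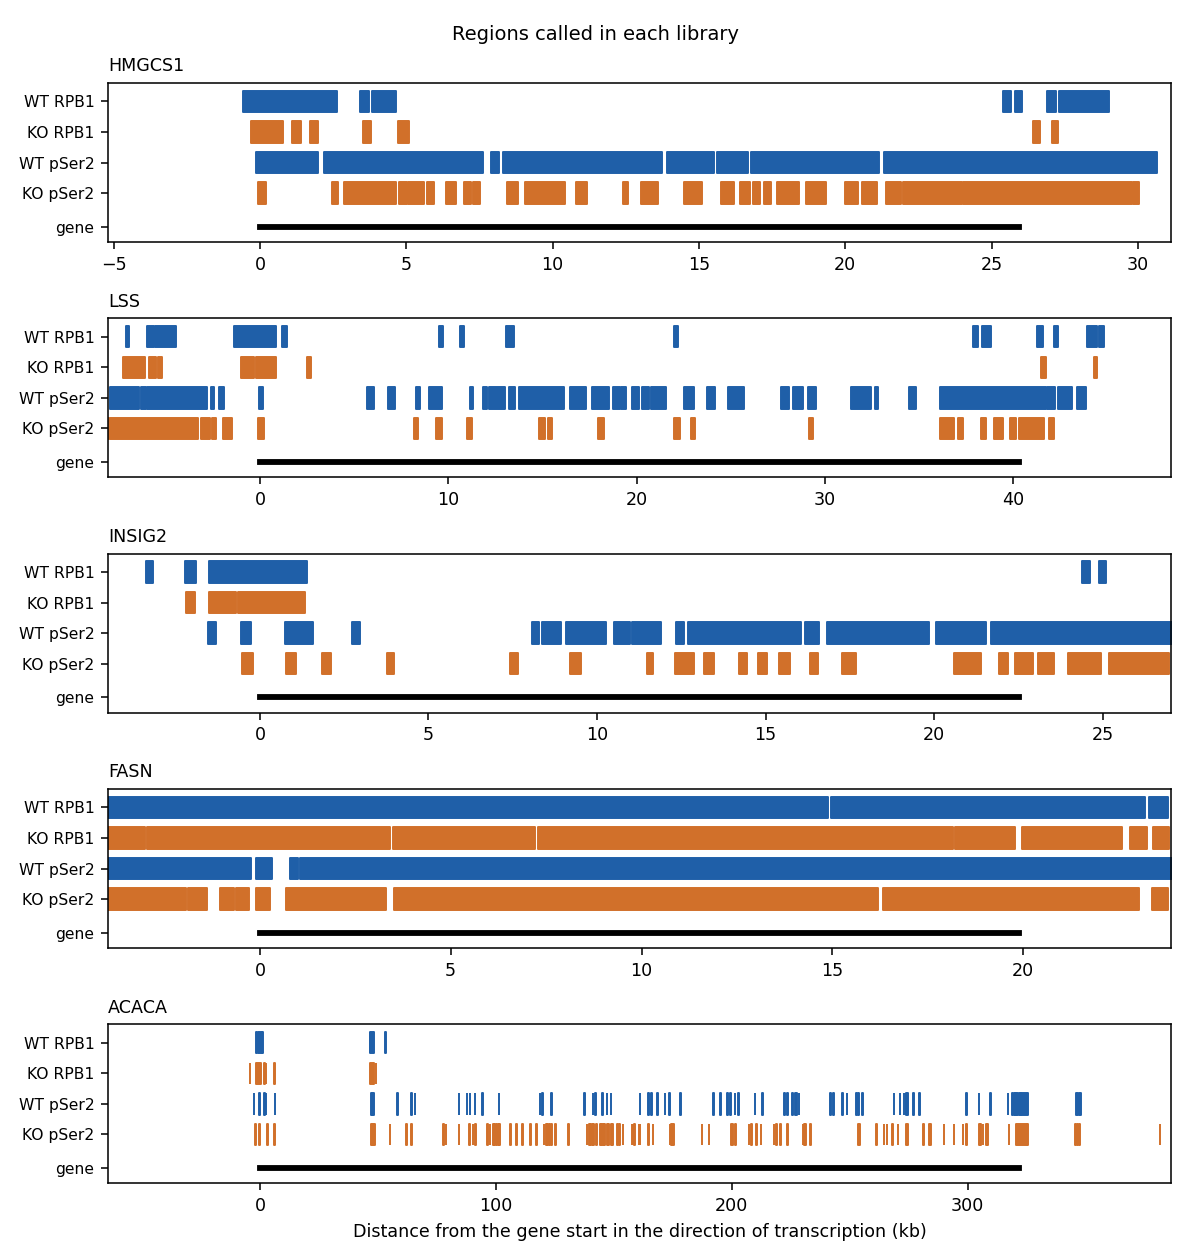
Regions called in each of the 4 libraries along HMGCS1, LSS, INSIG2, FASN and ACACA, drawn as bars by distance from the gene start in kb (blue, SHP-1-WT; orange, SHP-1-KO), with the gene as a black line. The pSer2 bars of SHP-1-KO covered less of HMGCS1, LSS and INSIG2 than those of SHP-1-WT, with 60.8%, 11.7% and 22.3% of the gene against 95.6%, 46.8% and 61.0%, while FASN was covered in both and ACACA had more and short bars in SHP-1-KO.

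The lower coverage was found along the whole gene. Over the 19 genes with a mean coverage of at least 20%, the median difference was -16.7 points in the opening part of the gene, -15.4 points in the middle and -15.1 points at the end, the gene being divided into 3 parts of equal length. For all 3305 such genes the differences were -1.87, -3.33 and -1.89 points. In SHP-1-WT the median coverage of the 19 was higher towards the gene end, with 43.8%, 66.6% and 92.7% in the 3 parts, and in SHP-1-KO it was 34.5%, 35.5% and 72.6%. The longest pSer2 region touching the gene, taken at its full length, was shorter in SHP-1-KO in 18 of the 19. Among all such genes, 64.2% had a shorter one. The median length was 5898 bp in SHP-1-WT and 4100 bp in SHP-1-KO for the 19, against 3311 and 2932 bp for all such genes.

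The strongest summits lay in similar places in both genotypes, counting summits from the gene start to 3 kb past its end. The strongest RPB1 summit lay in the first 10% of the gene in 25 of 29 genes in SHP-1-WT and 26 of 29 in SHP-1-KO. For pSer2 it lay in the last 25% of the gene, or within 3 kb past its end, in 26 of 29 genes in SHP-1-WT and 21 of 27 in SHP-1-KO. FDPS had its strongest RPB1 summit past the gene end in both genotypes, 26.6-fold in SHP-1-WT and 12.2-fold in SHP-1-KO. CYP51A1 and TM7SF2 had their strongest pSer2 summit past the gene end in SHP-1-WT and at the start in SHP-1-KO. For TM7SF2 the 2 places were nearly equal in SHP-1-KO, with 23.4-fold at the start and 22.2-fold in a region reaching past the end. In SHP-1-WT, 1 region of 20.4-fold covered TM7SF2 from start to end. The CYP51A1 end had 9.96-fold in SHP-1-WT, and its start had 6.39-fold in SHP-1-KO.

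**Figure D4:**
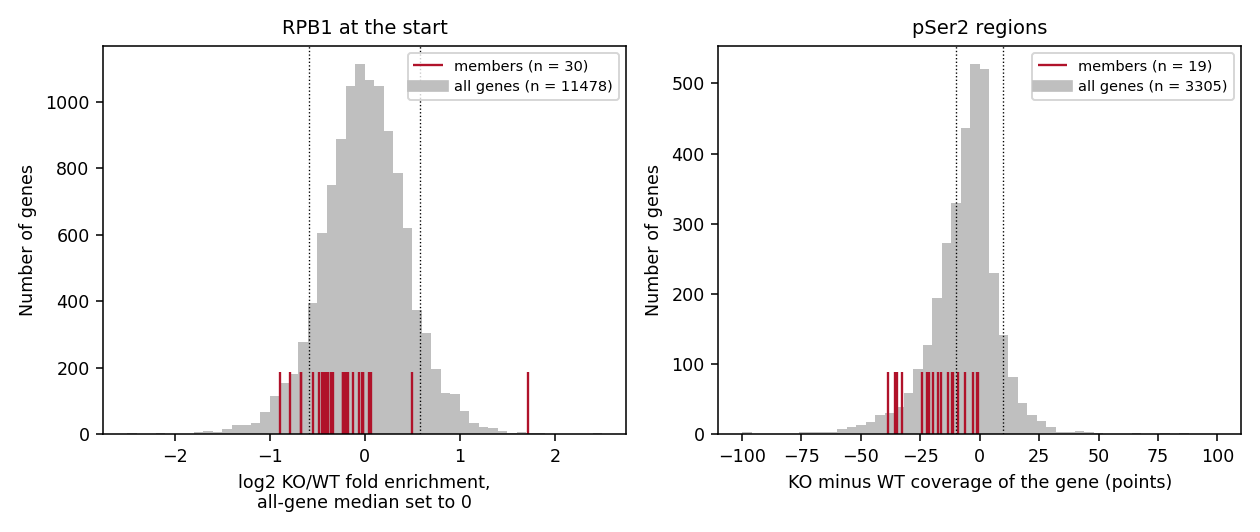
Left, centred log2 ratio of RPB1 at the start, SHP-1-KO to SHP-1-WT, for all 11478 genes (grey) and the 30 genes of the set (red lines). Right, difference in pSer2 coverage in points for the 3305 genes with a mean coverage of at least 20% (grey) and 19 genes of the set (red lines), with dotted lines at 1.5-fold and 10 points and values beyond the axis placed in the outer bars. The red lines lay mostly left of 0 in both panels, with medians of -0.28 and -17.6.

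Genes near the members gave a local reference. Of 23 members with a pSer2 region and at least 1 other gene within 1 Mb with a mean pSer2 coverage of at least 20%, 16 had a lower difference than the median of their neighbours and 7 did not (TM7SF2, NSDHL, EBP, ACACA, SCD, SREBF1 and SCAP). The members themselves were not held to that 20%. The same count was not made over all genes, so 16 of 23 has no background share beside it. NSDHL and EBP, with 1.86% and 5.93% in SHP-1-WT, could not have fallen as far as their neighbours' medians of -14.4 and -6.32 points. Within 1 Mb of HMGCS1 and of IDI1, 1 and 2 other genes had a mean pSer2 coverage of at least 20%, with median differences of 0 and 0.384 points against -34.8 and -35.5 in the members. The 4 such neighbours of MVK had a median of 7.82 points against -32.8, and the 16 of MVD 0.941 points against -22.1. Near LSS, the 2 neighbours had a median of -11.8 points against -35.1, and near SREBF1 the 3 neighbours had -16.5 points against -0.811. The 4 neighbours of NSDHL had -14.4 points against -1.86, the 11 of SCD -7.01 against -6.35, and the 31 of TM7SF2 -6.81 against -2.73. INSIG2, MSMO1 and SC5D had no such neighbour.

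A further 26 genes of lipid metabolism outside the set were described in the same way. At the start by position, 2 of 23 were lower past 1.5-fold, where 8.59% of all genes were, and 0 higher, where 8.51% were. The median centred log2 ratio of the 23 was -0.05. By the names of the lists, the 2 were MYLIP (92.9 to 43.4), which marks lipoprotein receptors for degradation, and ABCA1 (58.0 to 22.1), which exports cholesterol. pSer2 coverage was lower by at least 10 points in 5 of 20 (THRSP, SLC25A1, NR1H3, ABCA1 and SOAT2), where 14.5% of all genes were. It was higher by as much in 0, where 3.23% were, and the median was -2.30 points. SOAT2, which esterifies cholesterol, went from 29.1% to 8.07% and ABCA1 from 59.8% to 33.7%. These genes as a list lay between the members and all genes in coverage, and no test separates the lists. In gene body RPB1 by name, 3 of 12 were lower past 1.5-fold (ACACB, LPIN1 and ABCA1), where 12.1% of all genes were. Another 2 were higher (NR1H3 and ACSL3), where 9.27% were. In promoter pSer2 by name, 3 of 13 were lower (MLXIPL, SCARB1 and ABCA1), where 11.0% were, and 1 was higher (ACSL3), where 10.4% were. In body pSer2 by name, 1 of 15 was lower (HSD17B12), where 7.81% were. GGPS1, geranylgeranyl diphosphate synthase, had a promoter RPB1 region by name in SHP-1-KO alone (6.79), where 4.51% of all names did. By position, RPB1 regions of any name covered 15.3% of GGPS1 in SHP-1-WT and 14.5% in SHP-1-KO.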

How the data were processed

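ChIP-seq of RPB1 and pSer2 RPB1 was measured in HepG2 cells of both genotypes, and every antibody had a single library in each. The 2 input libraries were not analysed here. Per the submitters' processing notes, the authors used Trimmomatic, BWA and MACS2 on GRCh38 (hg38), with versions not given in the sources used here. The deposited lists give each region its position, score, fold enrichment (a ratio over input at the summit), -log10 p-value and -log10 q-value, and the class and nearest gene that the authors assigned. Read counts are not in the lists, so depth and counting error are unknown. Another deposited table holds the authors' own comparison (numbers of windows up and down, p-values and false discovery rates) and was not used.

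The highest fold enrichment per gene name was taken among promoter regions and among exon, intron and UTR regions. Ratios of SHP-1-KO to SHP-1-WT were divided by the median ratio of all genes, and calls were made past 1.5-fold. Gene starts, spans and coverage used the canonical transcripts of GENCODE release 44 on the same build, and 0 regions ran past a chromosome end. Coverage calls used 10 points. Every member was named. Other pathway genes were named when past a threshold by name, in RPB1 at the start or in coverage. For pSer2 at the start by position, and for regions in 1 genotype alone, they were not all named. The members and lists were chosen with earlier results of these data known. With 1 library per group no test was run. A check against markers of other cell types is not reported here. Alternatives were the ratio as deposited, a 2-fold threshold, the mean over regions, a -log10 q-value of at least 5, a wider motif window and coverage to 3 kb past the gene end. The start by position, RPB1 coverage, lists of equal size, the coverage minimum and the motif background of genes with RPB1 were added after seeing the data. Functions were tested on simulated data. Python 3.11.15, NumPy 2.4.6, pandas 2.3.3 and Matplotlib 3.10.9 were used.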

Additional observations from a re-analysis of the deposited data

How the results depend on the processing

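Of 554 values recomputed under an alternative, 25 had the other sign, of which 0 were past their threshold as reported and 0 were medians or counts over the genes. Among single genes, promoter RPB1 by name went from 0.24 to -0.78 for MVK and from 0.13 to -0.90 for FADS1 by position, and from -0.05 to 0.73 for ACACA with the mean over regions, which also took body pSer2 of MSMO1 from 0.25 to -0.62. For promoter RPB1 by name, the ratio as deposited gave a median log2 ratio of -0.65 with 14 genes lower and 0 higher, the 2-fold threshold left 0 lower and 0 higher, the mean over regions gave -0.05 with 6 lower and 2 higher, and the strongest region within 1 kb of the start gave 4 lower. For RPB1 at the start by position, the ratio as deposited gave -0.76 with 22 lower, the 2-fold threshold left 0 lower, and a window of 250 bp left 0 higher. As deposited, the median log2 ratio of all genes was itself -0.461 by name and -0.479 by position. The counts of 14 and 22 thus include the shift of all genes. The share of all genes past 1.5-fold was not counted for the ratio as deposited or for the mean over regions. For pSer2 in gene bodies, 4 genes were lower with the ratio as deposited, 1 with the 2-fold threshold and 4 with the mean over regions, which left 0 higher. The median difference in pSer2 coverage was -17.6 points over genes with a mean coverage of at least 20%. When regions under 5 on the -log10 q scale were left out, the median percentile of the genes was 47.5 for body RPB1 in SHP-1-KO and 58.8 for body pSer2 in SHP-1-WT. With 500 bases on each side of the start, 2 genes held the sterol element core, 7 TATAAA and 8 the E-box (7.41%, 25.9% and 29.6%, against 5.04%, 35.3% and 18.7% of all genes), and 1 of the genes with an RPB1 region held TATAAA in the shorter window. The cause of these shifts was not tested.

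No paired analysis was possible because each group had 1 library and the labels give no replicate numbers, and leaving out a library was impossible for the same reason. The planned limit of promoters to 1 kb was not run, since every deposited promoter region already lies within 1000 bp of a start. Regions below the calling threshold are not in the lists, so a gene without a region is not a gene shown to lack polymerase, and coverage moves with how much was called in a library.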
